A study of Homo sapiens with 9 samples.

Results

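Transcript levels in the 6 libraries of human HEK293T cells labelled FHY1-M3 were compared with those in the 3 libraries labelled input, across all genes. These 9 libraries are all the libraries of the count table, and all 19969 of its gene symbols entered, of which 16777 had a count in at least 1 library. HEK293T is an established line derived from human embryonic kidney cells. The FHY1-M3 libraries carried an ACTB sgRNA, a con sgRNA or a non-target sgRNA, with 2 libraries each. The labels give the inputs no construct and no guide, so whether the input cells carried FHY1-M3 is not known. For all 9 the labels name total RNA freed of ribosomal RNA, and they describe a directional library kit for input, supernatant and IP fractions. They do not say to which fraction the FHY1-M3 libraries belong, which light any culture received, what M3 stands for, or how con and non-target guides differ. The con libraries appear in the deposited table as con_ACTB_sgRNA. Nothing says that the replicates were separate cultures, so every p-value rests on the spread of these libraries alone, and that spread may be technical.

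FHY1 is a plant protein that carries the light receptor phytochrome A into the nucleus, and the series concerns light-controlled editing of m6A, the methylation of adenosines within RNA. Cells meet unfolded protein with heat shock factor, a transcription factor that binds heat shock elements in promoters and raises the genes for chaperones. Most messenger RNAs of the nucleus end in a long poly(A) tail, whereas mRNAs of the replication-dependent histones end in a stem-loop and mitochondrial mRNAs carry short tails. Small nucleolar and small nuclear RNAs, which guide RNA modification and splicing, often lie inside larger host genes and have no tail.

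The FHY1-M3 libraries were much deeper than the inputs, with 2900021 to 3802681 counts each against 350413, 643954 and 391710. Depth therefore moved with the group, and its part in a difference cannot be told apart from that of the group, although the FHY1-M3 libraries were also thinned to the input depth as an alternative. A fragment appears to have added about 2 counts, since 88.5% to 95% of values between 1 and 20 were even. The root mean square log2 difference between FHY1-M3 libraries was 0.381 to 0.529 for the same guide and 0.386 to 0.539 for different guides (8827 genes). Between inputs it was 0.961 to 1.29, and between FHY1-M3 and input libraries 0.888 to 1.38. With all libraries thinned to 350413 counts (7604 genes), these ranges were 0.458 to 0.530 for the same guide, 0.649 to 0.786 between inputs and 0.780 to 0.974 between the groups. The 3 inputs thus differed among themselves more than the FHY1-M3 libraries did, also at equal depth. At that depth 10091 to 10204 genes had at least 4 counts in the FHY1-M3 libraries and 10042 to 10109 in the inputs (two-sided exact permutation p = 0.143, n = 6 and 3). At least 10 counts were held by 7566 to 7652 and 7277 to 7347 genes, without overlap (exact permutation p = 0.0238). The HEK293T-like marker list had 11 of 12 members tested, with a summed level of 1622 to 1835 CPM in the FHY1-M3 libraries and 1651 to 1890 CPM in the inputs. Its most abundant member VIM, an intermediate filament gene, differed by -0.07 on the log2 scale (95% interval -0.26 to 0.11). Markers of fibroblasts (8 genes), blood (8) and hepatocytes (6) summed to at most 75.2, 23.1 and 26.1 CPM in any library.

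Of 13411 genes with enough counts to test, 2677 (20%) differed at an adjusted p under 0.05 in edgeR's quasi-likelihood test with Benjamini-Hochberg adjustment. Higher in the FHY1-M3 libraries were 1524 genes (11.4%), 837 of them at least 2-fold, and lower were 1153 (8.6%), 729 of them at least 2-fold. At least 8-fold lower were 151 genes, of which 27 were mitochondrial mRNAs or replication-dependent histone genes, and at least 8-fold higher were 27 genes with counts in the inputs. A further 41 genes called higher were at 0 in every input, and 2 genes called lower were at 0 in every FHY1-M3 library. The inputs were shallower, so these numbers do not compare the 2 directions. Levels are given in CPM, counts scaled to the library's total after TMM adjustment, and a level in these bulk libraries does not tell fewer cells with a transcript from less of it per cell. Folds are log2, FHY1-M3 minus input, with the standard error (SE) of the fit. The fit gives each gene a spread shared by the 3 guide groups and the inputs, although the inputs varied more. For genes with uneven inputs the SE and p can therefore be too small. The 6 and 3 libraries did not overlap in 3133 of the tested genes (23.4%), of which 2171 were called and 962 were not. The median log2 difference over all tested genes was 0.04. The gene lists below are read against it and against the 11.4% and 8.6% of all genes called. Calls were more frequent at high levels: at 300 CPM or more 30.3% of genes were called higher and 28.8% lower. The split of calls depended on scaling: 56.9% of called genes were higher with TMM scaling, 62.3% with library totals, 48.2% with median-ratio factors, and 45.6% in DESeq2. It was 47.4% when the FHY1-M3 libraries were thinned.

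The 3 guides gave this difference side by side. Against the shared inputs, 1477 genes (11%) passed with the ACTB sgRNA, 1534 (11.4%) with the con sgRNA and 1699 (12.7%) with the non-target sgRNA. In all 3 comparisons 657 genes were called higher and 321 lower, and 0 were called in opposite directions. Because the inputs are the same, this is not independent agreement. COL5A1, which encodes a fibrillar collagen chain, stood at log2 3.13 (ACTB sgRNA), 3.73 (con) and 3.73 (non-target), and HMOX1, the heme oxygenase gene, at 3.78, 3.22 and 2.91. DNAJB1, a cochaperone gene, was close to level over the guides at 2.81, 2.69 and 2.78.

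Many chaperone and cochaperone genes were higher in the FHY1-M3 libraries. Of 34 tested heat shock and cochaperone genes, 23 were called higher and 0 lower (11.4% of all genes were called higher), with a median log2 of 0.69. HSPA6, an HSP70 that is silent in most unstressed cells, held 238, 274 and 293 CPM (lowest, median and highest of the 6 FHY1-M3 libraries) and 0 counts in each input. Set against 3 counts over the input group, it was 121-fold higher, and the groups lay far apart. That limit covers counting error only. With about 2 counts per fragment, 3 counts stand for fewer than 3 fragments, so 121-fold is not a firm lower bound. The HSP40 gene DNAJB1 (chromosome 19, 14514769 to 14560391) held 881 to 1004 CPM (median 918) in the FHY1-M3 libraries and 139, 117 and 162 CPM in the inputs (log2 2.76, SE 0.12, adjusted p = 2.3e-20). HSPH1, an HSP70 exchange factor gene (chromosome 13, 31134973 to 31162388), held 648 to 722 CPM (median 705) against 69.4, 127 and 162 CPM (log2 2.52, SE 0.15, adjusted p = 6.2e-16). In both genes each FHY1-M3 library was more than 4 times the highest input. BAG3, another exchange factor that feeds clients to autophagy, rose by 2.42 (SE 0.21), from 57.8, 35.8 and 57.5 CPM to 234 to 283 CPM (median 267).

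The abundant chaperones moved less. HSP90AA1, the stress-responsive cytosolic HSP90, rose by 1.62 (SE 0.07) from 1009, 1169 and 1202 CPM to 3177 to 3614 CPM (median 3508). Its constitutive counterpart HSP90AB1 rose by 0.67 (SE 0.07), and HSPA8, the constitutive HSP70, by 0.67 (SE 0.07) from 1417, 1528 and 1312 CPM to 2186 to 2367 CPM (median 2268). The inducible pair HSPA1A (2.54, SE 0.53) and HSPA1B (1.78, SE 0.11) rose too, but these copies are near-identical, so reads may have been divided between them. The HSP90 cochaperones AHSA1 (1.08, SE 0.17) and STIP1 (0.96, SE 0.11), and STUB1 (1.14, SE 0.32), a ubiquitin ligase bound to chaperones, were higher as well. The 11 members not called included the small heat shock protein HSPB1 (-0.01, SE 0.30) and HSPE1 (-1.21, SE 0.74), the mitochondrial cochaperonin. HSF1 itself, the main heat shock factor, differed by -0.25 (SE 0.22, adjusted p = 0.462). Together the heat shock list took 1.58% to 1.71% of all counts in the FHY1-M3 libraries and 0.763%, 0.790% and 0.773% in the inputs (two-sided exact permutation p = 0.0238, also 0.0238 after adjustment over 8 classes, n = 6 and 3, the smallest p that 6 against 3 allows). All 8 classes had this p, so the adjustment changed nothing. The 8 were taken from 50 lists chosen with earlier results of these data known, a choice that the adjustment does not cover.

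Promoters of the chaperone genes are shown because this list could be read against a known element. The motif shown was the heat shock element of 3 units, GAA, TTC and GAA with any 2 bases between neighbouring units, on both strands, in windows from 250 bases before to 50 after the start site (RefSeq, GRCh38.p14). It stood in 0.49% of 35116 windows, in 0.487% of 10882 tested genes with a window, in 0.869% of the genes called higher and in 0.642% of those called lower. In the heat shock list 8 of 32 genes with a window held it, and all 8 were called higher: HSPA6, HSP90AA1, HSPA8, HSP90AB1, HSPD1, DNAJA1, DNAJB6 and CHORDC1. These 8 are among the 11 genes called higher that held it, so the 0.869% rests mostly on them and says little about other genes. The call of DNAJB6 was lost after thinning to the input depth (edgeR adjusted p = 0.128) and without input replicate 2 (0.116), and that of CHORDC1 without input replicate 3 (0.0646) and with the replicate block (0.0732). The shorter element with only GAA and TTC, which every 3-unit match also contains, stood in 6.77% of windows and in 14 of the 32 genes, DNAJB1 among them. HSPH1 and BAG3 held neither in this window. An amino acid response element and an antioxidant response element were searched too. The former stood in 3 of 19 genes with a window of the ATF4 amino acid response list, against 2.81% of tested genes. The latter stood in 5 of 12 genes of the oxidative and iron list, 8 of 19 of the ATF4 list and 9 of 32 of the heat shock list. Its share over tested genes was 19.2%. A match is a description of letters, not a bound site, and no match says only that these letters are not in the window. In the 5 windows printed here 5′ to 3′ along the gene, capitals mark the 3-unit matches, the base before the start site being -1 and the start site +1.
HSPA6: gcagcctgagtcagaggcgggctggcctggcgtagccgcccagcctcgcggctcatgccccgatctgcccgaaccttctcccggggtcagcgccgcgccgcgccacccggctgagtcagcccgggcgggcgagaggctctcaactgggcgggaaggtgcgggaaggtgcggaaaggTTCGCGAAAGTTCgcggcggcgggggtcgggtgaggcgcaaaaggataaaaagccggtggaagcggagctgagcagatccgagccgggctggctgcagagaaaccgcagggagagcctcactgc
HSP90AA1: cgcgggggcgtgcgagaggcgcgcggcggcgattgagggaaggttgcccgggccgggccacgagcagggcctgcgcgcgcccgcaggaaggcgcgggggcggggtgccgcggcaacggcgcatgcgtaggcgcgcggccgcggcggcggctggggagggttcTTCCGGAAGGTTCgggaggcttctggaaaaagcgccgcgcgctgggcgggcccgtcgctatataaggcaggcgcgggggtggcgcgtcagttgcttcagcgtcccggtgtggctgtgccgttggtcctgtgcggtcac
HSPA8: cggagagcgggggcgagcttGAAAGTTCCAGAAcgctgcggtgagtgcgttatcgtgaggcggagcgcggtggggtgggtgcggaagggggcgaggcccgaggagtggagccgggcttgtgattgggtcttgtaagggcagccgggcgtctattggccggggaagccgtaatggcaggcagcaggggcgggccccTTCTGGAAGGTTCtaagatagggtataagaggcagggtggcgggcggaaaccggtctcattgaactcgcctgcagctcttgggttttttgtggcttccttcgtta
DNAJA1: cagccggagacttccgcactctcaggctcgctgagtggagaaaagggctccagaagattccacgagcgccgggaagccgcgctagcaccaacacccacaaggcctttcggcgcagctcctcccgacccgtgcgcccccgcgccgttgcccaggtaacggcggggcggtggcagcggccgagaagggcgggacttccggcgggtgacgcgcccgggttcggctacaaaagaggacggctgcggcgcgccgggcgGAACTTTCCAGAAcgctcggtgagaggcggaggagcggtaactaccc
CHORDC1: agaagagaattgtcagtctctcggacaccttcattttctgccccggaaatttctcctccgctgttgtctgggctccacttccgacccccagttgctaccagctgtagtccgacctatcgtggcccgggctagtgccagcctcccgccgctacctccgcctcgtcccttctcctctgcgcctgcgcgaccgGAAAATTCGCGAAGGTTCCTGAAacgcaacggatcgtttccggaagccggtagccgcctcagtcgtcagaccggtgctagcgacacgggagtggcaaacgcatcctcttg
HSPA6 (chr1:161524290-161524589, plus strand) and HSP90AA1 (chr14:102086995-102087294, minus strand) each held 1 match, at -74 to -62 and -88 to -76. HSPA8 (chr11:123062087-123062386, minus strand) held 2 matches between -230 and -43. In DNAJA1 (chr9:33025023-33025322, plus strand) the match lay at +3 to +15, and in CHORDC1 (chr11:90223000-90223299, minus strand) 3 overlapping matches ran from -60 to -38. The 8 heat shock list genes with a match ranged from HSPD1 (log2 0.47, SE 0.10) to HSPA6. HSPA6 was 121-fold higher when set against 3 counts over the inputs. Among all 53 tested genes that held the element, 11 were called higher and 6 lower.

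TRiC and proteasome genes were more often called higher than lower, beside 11.4% and 8.6% of all genes. The list of ubiquitin and aggregate handling genes was mixed, with 4 of 15 higher and 2 lower. Its median was 0.02, and -0.06 with median-ratio factors. All 8 genes of TRiC, the chaperonin that folds actin and tubulin, were called higher, with a median of 0.77 and values from 0.43 for CCT6A to 0.99 for CCT8. The call of CCT6A was lost without input replicate 1 (log2 0.26, edgeR adjusted p = 0.154) and without FHY1-M3 con sgRNA replicate 1 (0.40, adjusted p = 0.0687). It was lost too after thinning (adjusted p = 0.0616), with the 10 CPM filter (0.0633) and with median-ratio factors (0.0588). CCT5 rose from 341, 354 and 259 CPM to 521 to 645 CPM (median 614; log2 0.91, SE 0.12, adjusted p = 3.02e-07). Of 32 proteasome genes 15 were called higher and 2 lower, with a median of 0.63. PSMD8 (0.91, SE 0.19), PSMC4 (1.11, SE 0.25) and PSMD3 (0.83, SE 0.19), all of the regulatory particle, rose. The 2 lower calls were not stable. That of PSMA6 was lost in 7 of the alternatives, 6 of them with 1 library left out, and most clearly without input replicate 2 (edgeR adjusted p = 0.222). That of PSMB2 was lost without input replicate 3 (edgeR adjusted p = 0.0653) and with the replicate block (0.0527). The polyubiquitin gene UBB (0.91, SE 0.10) rose, whereas RPS27A (-0.46, SE 0.10), which encodes ubiquitin fused to a ribosomal protein, fell. SQSTM1, an autophagy receptor gene, rose by 1.31 (SE 0.23), and ZFAND2A, an arsenite-inducible proteasome-associated gene, by 1.99 (SE 0.49).

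Other stress programmes showed no common direction. Of 23 genes of the unfolded protein response of the endoplasmic reticulum 3 were called higher and 3 lower, a share near the background, with a median of 0.02 whose sign turned with scaling (-0.05 with median-ratio factors). HYOU1, a chaperone of that compartment, rose by 0.65 (SE 0.16), while HSP90B1 (-0.37, SE 0.10) and the degradation factor HERPUD1 (-1.21, SE 0.23) fell. Among 24 genes of the ATF4 amino acid response 6 were called higher and 4 lower, beside 11.4% and 8.6% of all genes. SESN2 rose from 127, 163 and 125 CPM to 378 to 509 CPM (median 439; log2 1.62, SE 0.15, adjusted p = 5.58e-11), and DDIT4 rose by 1.23 (SE 0.14). Both genes restrain the growth kinase complex mTORC1. ASNS, the asparagine synthetase gene, fell from 763, 468 and 653 CPM to 157 to 231 CPM (median 177; log2 -1.75, SE 0.13, adjusted p = 1.81e-13), with no overlap. ATF4 differed by -0.07 (interval -0.23 to 0.09). In the oxidative and iron list of 17, HMOX1 was the 1 gene called higher, from 5.78, 6.50 and 5.23 CPM to 32.8 to 105 CPM (median 58.04; log2 3.30, SE 0.52, adjusted p = 1.08e-05). The 3 inputs held only 8 counts of it in all, against 1311 in the FHY1-M3 libraries. It varied over 3-fold between FHY1-M3 libraries but was above each input in every one. The ferritin genes FTH1 (log2 -3.21, SE 0.13, adjusted p = 3.96e-21) and FTL (-0.71, SE 0.12) fell, FTH1 from 769, 683 and 714 CPM to 62.2 to 98.9 CPM (median 71.7).

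Early response and damage genes split. Of 28 immediate early genes 4 were called higher and 4 lower, beside 11.4% and 8.6% of all genes. Calls lost without 1 input included IER5 (edgeR adjusted p = 0.124 without input replicate 2) and KLF2 (0.892 without input replicate 1). That of CCN2 was lost without input replicate 3 (edgeR adjusted p = 0.524). The AP-1 gene JUN rose from 806 ± 71.97 to 1349.8 ± 66.8 CPM (log2 0.74, SE 0.08, adjusted p = 7.8e-09), and its relative JUND fell (log2 -1.62, SE 0.17, adjusted p = 1.56e-09). IER2 rose by 1.38 (SE 0.28) and EGR1 fell (-1.93, SE 0.37). Of 20 p53 targets 4 were called higher, among them the phosphatase PPM1D (2.13, SE 0.30) and the nuclease AEN (0.97, SE 0.17), and 3 lower (1 without input replicate 1), among them MDM2 (-0.99, SE 0.17), the ubiquitin ligase of p53. In the hypoxia list 2 of 15 were higher and 0 lower (2 lower in DESeq2 and 1 without input replicate 1), near the 11.4% of all genes called higher. HIF1A, from the list of stress transcription factors, rose by 1.06 (SE 0.20). Of 15 interferon genes tested, 2 were higher, among them IFIT5 (2.30, SE 0.51), and 2 lower. With 1 library left out 1 or 2 were higher and 0 or 1 lower, and the other higher call, IFIT1, was lost in 7 of those 9 fits (edgeR adjusted p = 0.0509 to 0.122). Of 10 NF-kB targets 2 were higher (0 without input replicate 2, and 1 without another input, an ACTB or a con library) and 1 was lower, the subunit gene REL (-1.75, SE 0.23).

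Mitochondrial mRNAs and stem-loop histone mRNAs were far lower in the FHY1-M3 libraries. Mitochondrial mRNAs, which encode subunits of the respiratory chain, took 0.563% to 0.639% of counts in the FHY1-M3 libraries and 7.80%, 7.71% and 7.52% in the inputs (two-sided exact permutation p = 0.0238, adjusted 0.0238). Within the 13, all called lower, the size varied from MT-CO2 (-2.98, SE 0.05) to MT-ATP8 (-5.79, SE 0.17). MT-ND2, a complex I subunit, held 3269.7, 4000.1 and 3325 CPM in the inputs and 91.9 to 127 CPM (median 101) in the FHY1-M3 libraries (log2 -5.06, SE 0.08, adjusted p = 9.32e-36). The 3 cytochrome c oxidase mRNAs had the smallest decreases of the 13: MT-CO2, MT-CO3 (-3.30, SE 0.06) and MT-CO1 (-3.34, SE 0.04). MT-ND6, the one mRNA of the light strand, fell by 3.55 on the log2 scale. Nuclear genes for the same complexes did not share this: of 73 tested, 4 were called higher and 10 lower, with a median of -0.15 (1 to 4 higher and 6 to 10 lower with 1 library left out, the lowest without con sgRNA replicate 1). COX5A (-1.15, SE 0.17), COX8A (-1.90, SE 0.32) and COX7C (-0.87, SE 0.17), small subunits of cytochrome c oxidase, fell, and NDUFS6 (1.18, SE 0.32) rose. Of 24 import and chaperone genes of mitochondria 8 were higher and 0 lower (2 lower without input replicate 1), with TIMM23 (1.92, SE 0.31), a channel of the inner membrane, and LONP1 (0.82, SE 0.14), a matrix protease, among them. The mitochondrial DNA polymerase gene POLG rose by 1.07 (SE 0.19).

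Replication-dependent histone genes took 0.132% to 0.149% of counts in the FHY1-M3 libraries and 0.797%, 0.938% and 0.926% in the inputs (exact permutation p = 0.0238, adjusted 0.0238). Of 71 members 43 could be tested, and 37 were called lower and 0 higher (8.6% of all genes were called lower). HIST1H4D held 249, 231 and 251 CPM in the inputs, a narrow range, and 2.73 to 8.32 CPM (median 5.67) in the FHY1-M3 libraries (log2 -5.46, SE 0.28, adjusted p = 3.24e-18). HIST1H1E, a linker histone gene, fell less (-2.75, SE 0.11). Family members share sequence, so single values are uncertain. Replacement histones, whose mRNAs carry poly(A) tails, did not fall together: of 11 tested 3 were higher and 2 lower. H1F0 (0.72, SE 0.11) and H3F3B (0.68, SE 0.13) rose. H2AFX (-0.96, SE 0.15), which is known to give both a stem-loop and a tailed mRNA, fell, and so did H1FX (-0.76, SE 0.12). Among 11 genes of histone mRNA processing 3 were higher and 0 lower. ZNF473, a zinc finger protein of the U7 particle that cuts histone pre-mRNA, held 184 to 239 CPM (median 209) against 40.5, 39.01 and 20.9 CPM in the inputs (log2 2.63, SE 0.24, adjusted p = 6.34e-11). CSTF2, a cleavage factor subunit, rose by 2.01 (SE 0.37), and SLBP, the stem-loop binding protein, differed by 0.32 (SE 0.23, adjusted p = 0.352).

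Some of the largest decreases fell on genes whose span holds a small RNA gene. TMEM107, a gene of the primary cilium (chromosome 17, 8172457 to 8176380), held 572, 2321 and 1129 CPM in the inputs and 4.05 to 11.96 CPM (median 10.6) in the FHY1-M3 libraries (log2 -7.24, SE 0.24, adjusted p = 2.51e-24). The small nucleolar RNA gene SNORD118 (chromosome 17, 8173452 to 8173588) lies within it. WDR74, a ribosome assembly gene (chromosome 11, 62832905 to 62841809), whose span holds the small nuclear RNA gene RNU2-2 (62841619 to 62841809), held 1607, 4039 and 2426 CPM against 46.2 to 81.7 CPM (median 64.3; log2 -5.42, SE 0.15, adjusted p = 4.92e-27). For both genes the inputs spread over 2-fold or more, yet the lowest input was over 19 times the highest FHY1-M3 library. Their SE and p rest on a spread shared by all groups and may be too small. EIF4A1, an RNA helicase of translation initiation whose span (chromosome 17, 7572825 to 7579006) holds SNORA48, SNORD10 and SNORA67, held 335, 1024 and 737 CPM against 40.9 to 48.4 CPM (median 44.9; log2 -3.97, SE 0.18, adjusted p = 4.91e-20). TAF1D (-2.55, SE 0.15), RABGGTB (-2.27, SE 0.14) and EIF4A2 (-1.77, SE 0.12) hold 8, 3 and 5 small nucleolar RNA genes and fell as well. CSKMT, which holds SNORA57, fell by 3.39 on the log2 scale. CSKMT and RABGGTB were chosen after their values were seen. Of the 5 tested genes that hold a named small nuclear RNA gene, WDR74 was the only 1 called. Over all 220 tested genes that hold a named small nucleolar RNA gene, 47 (21.4%) were called higher and 42 (19.1%) lower, with a median of -0.02, against 11.4% and 8.6% of all genes. The small nucleolar RNA hosts had a high median level, 135 CPM. At 20 CPM or more 24.0% of 192 such genes were higher and 21.9% lower, against 15.7% and 11.1% of all genes of that level. Gene counts do not separate reads of the host mRNA from reads of the small RNA, so the part of either in these values was not tested.

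Other genes low in FHY1-M3 had few counts left there. CDR1, a locus known for an abundant circular RNA made from its opposite strand, held 659, 777 and 538 CPM in the inputs and 10.9 to 28.7 CPM (median 19.8) in the FHY1-M3 libraries (log2 -5.05, SE 0.18, adjusted p = 9.94e-24), where these counts tell neither strand nor linear from circular RNA apart. KCNE1B (-6.31, SE 0.38) and SMIM11B (-5.92, SE 0.34) lie near each other on chromosome 21 and have near-identical copies elsewhere, so their values are uncertain. IGSF6 (-5.98, SE 1.40) and AP003108.2 (-5.77, SE 1.10) were also among the 12 with the largest decreases, as was CERKL, whose call was lost without input replicate 1 (adjusted p = 0.156).

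**Figure D1:**
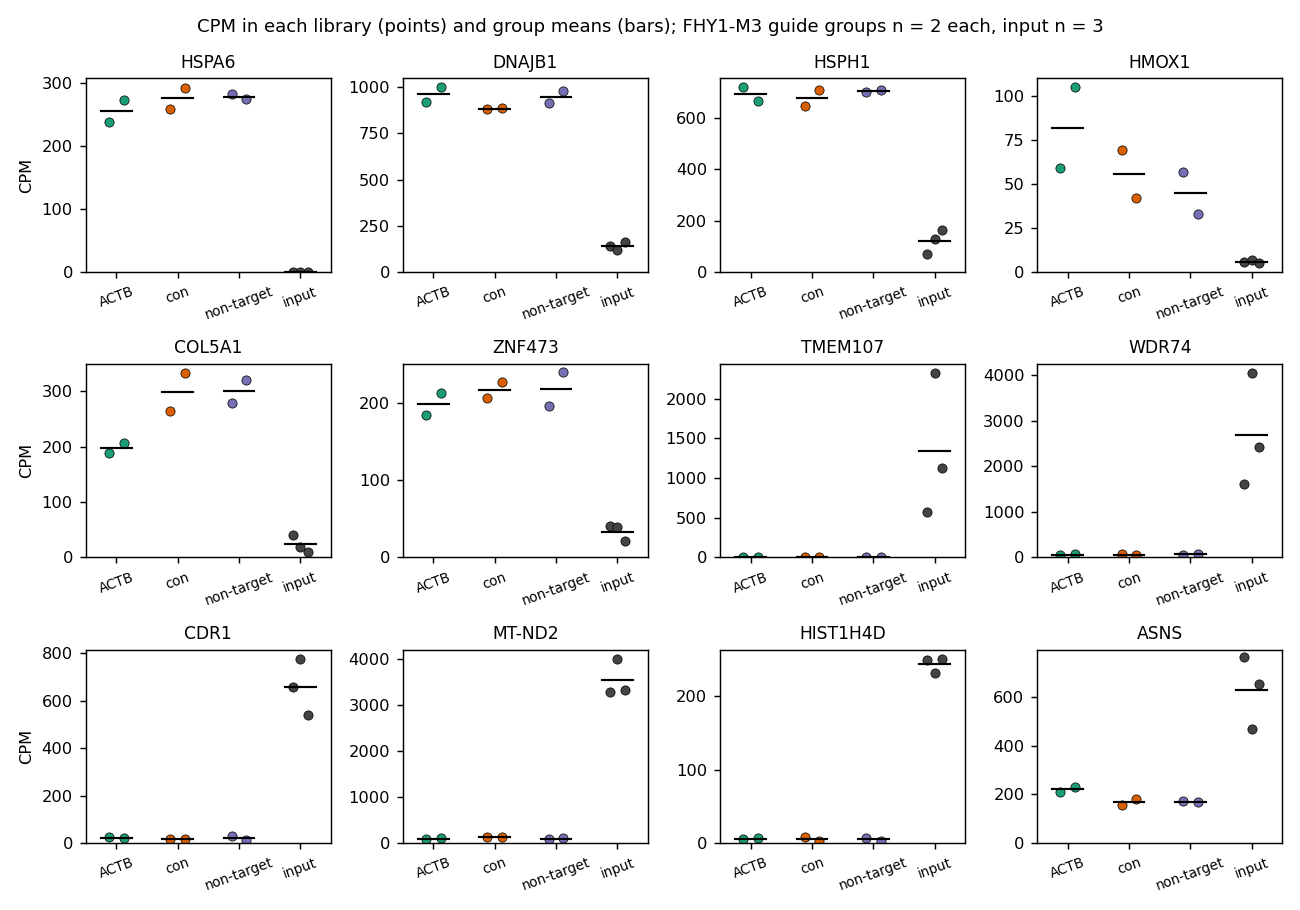
CPM (linear y axes starting at 0) of 12 genes in each library, with points for libraries and bars for group means, by guide group (n = 2 each) and input (n = 3). In every panel the 6 FHY1-M3 points lie wholly above or wholly below the 3 inputs, and the inputs of TMEM107 and WDR74 spread widely.

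Ribosomal protein genes and the genes that build ribosomes moved apart. Of 35 ribosome biogenesis genes 20 were called higher and 0 lower, with a median of 0.79, and their share of counts was 0.858% to 0.931% against 0.578%, 0.674% and 0.573% in the inputs (exact permutation p = 0.0238, adjusted 0.0238). BYSL, which matures the small subunit, held 127 to 147 CPM (median 137) against 28.9, 42.3 and 47.1 CPM (log2 1.77, SE 0.25, adjusted p = 2.07e-06). RRP12 (1.63, SE 0.27), WDR43 (1.16, SE 0.15) and the nucleolar proteins NPM1 (0.34, SE 0.07) and NCL (0.45, SE 0.08) rose. Cytosolic ribosomal proteins took 6.89% to 7.09% against 7.30%, 7.80% and 7.55% (exact permutation p = 0.0238, adjusted 0.0238). Of 81 tested 37 were lower and 10 higher, with a median of -0.24 (6 higher without input replicate 1, and 43 lower and 7 higher with median-ratio factors). Of all genes at 300 CPM or more 28.8% were lower and 30.3% higher. RPL10 fell from 2258, 1868 and 2115 CPM to 1079.5 to 1224 CPM (median 1178; log2 -0.84, SE 0.07, adjusted p = 1.05e-11), and RPS9 rose from 335, 315 and 308 CPM to 611 to 686 CPM (median 641; log2 1.02, SE 0.11, adjusted p = 4.29e-09), so members moved both ways beyond their spread. Many of these genes have processed pseudogenes, and reads may have been divided with them. Mitochondrial ribosomal proteins had 10 of 76 higher and 5 lower (2 lower without input replicate 1 and 3 without ACTB sgRNA replicate 1), near the 11.4% and 8.6% of all genes, with MRPL17 (1.64, SE 0.34) and MRPL42 (-1.61, SE 0.20) at either side.

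Translation factors were split as well, with 12 of 37 higher and 8 lower. Of all genes 11.4% were higher and 8.6% lower, and at 300 CPM or more 30.3% and 28.8%. EIF5, the GTPase-activating factor of start codon choice, rose from 168, 232 and 204 CPM to 597 to 694 CPM (median 659; log2 1.68, SE 0.12, adjusted p = 1.71e-13), and the scaffold EIF4G1 by 0.84 (SE 0.10). EIF1 (-1.20, SE 0.11) and EIF2S3 (-1.18, SE 0.12) fell. EEF2, the translocation factor and the most abundant of the list, rose by 0.37 (SE 0.04). PABPC1, the cytoplasmic poly(A)-binding protein gene, fell from 2235, 2410.5 and 2415 CPM to 1141 to 1238 CPM (median 1197; log2 -0.98, SE 0.07, adjusted p = 1.07e-14). Of 20 aminoacyl-tRNA synthetases 10 were higher and 0 lower (7 and 1 with median-ratio factors). Those of smallest p were TARS (0.85, SE 0.12), MARS (0.71, SE 0.14) and KARS (0.85, SE 0.17).

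Genes of splicing and of cleavage and polyadenylation were more often called higher than lower, beside 11.4% and 8.6% of all genes. Between 100 and 300 CPM 25.2% of all genes were higher and 15.1% lower, and at 300 CPM or more 30.3% and 28.8%. The counts were 13 higher and 3 lower of 29 for the spliceosome core (1 lower without input replicate 3), 13 and 2 of 32 for hnRNP and SR proteins (1 lower without input replicate 1), and 7 and 0 of 19 for cleavage and polyadenylation. The last count was 4 higher without either ACTB replicate, con replicate 1, non-target replicate 1 or input replicate 3, and with median-ratio factors. CDC5L, a core spliceosome protein, held 389.9 to 444 CPM (median 418) against 139, 122 and 175 CPM (log2 1.55, SE 0.15, adjusted p = 1.92e-10). DDX23 (1.22, SE 0.19), HNRNPAB (1.10, SE 0.12), TRA2B (0.98, SE 0.14) and the poly(A) polymerase PAPOLA (0.57, SE 0.13) rose, while SF3A2 (-1.17, SE 0.17) and the SR protein SRSF1 (-1.53, SE 0.28) fell. Among 36 genes of mRNA decay 5 were higher and 5 lower (3 lower without either ACTB replicate, con replicate 2 or non-target replicate 1). Of all genes 11.4% were higher and 8.6% lower. UPF1, the helicase of nonsense-mediated decay, rose by 1.27 (SE 0.16), the exosome subunit EXOSC4 by 3.13 (SE 0.52), and the decapping enzyme DCP2 fell (-1.14, SE 0.22).

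Of 14 m6A writer and eraser genes 5 were higher and 2 lower. Of 12 readers 4 were higher and 0 lower, beside 11.4% and 8.6% of all genes. The second lower gene, METTL5, lost its call in 9 alternatives, among them those without input replicate 1 or 3, ACTB replicate 1, either con replicate or non-target replicate 2 (edgeR adjusted p = 0.0754 to 0.387). Among readers 1 was lower without input replicate 1 and in DESeq2. The writer complex subunits RBM15B (1.60, SE 0.18), ZC3H13 (0.86, SE 0.17), WTAP (0.96, SE 0.22) and VIRMA (0.82, SE 0.20) rose. WTAP stood at 124 to 169 CPM (median 147) against 86.7, 84.5 and 52.3 CPM, with no overlap. The catalytic gene METTL3 differed by -0.24 (SE 0.31, adjusted p = 0.631), and the eraser FTO fell (-1.06, SE 0.24). YTHDF2 (1.21, SE 0.17) and YTHDC1 (1.11, SE 0.18), readers of decay and of the nucleus, rose. The medians of 0.03 and 0.08 were close to that of all genes, and the former turned to -0.05 with median-ratio factors. Calls were also frequent in other genes of high level. Between 100 and 300 CPM 25.2% of all genes were higher and 15.1% lower, and at 300 CPM or more 30.3% and 28.8%.

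DNA replication genes were raised in part, beside 11.4% of all genes called higher and 8.6% lower. Of 40 tested 16 were called higher and 0 lower (15 and 1 with median-ratio factors), with a median of 0.51. They included the helicase subunits MCM7 (1.06, SE 0.11), MCM6 (1.40, SE 0.18) and MCM2 (0.96, SE 0.12) and the flap endonuclease FEN1, which rose from 54.9, 65.02 and 109.8 CPM to 203 to 276 CPM (median 216; log2 1.58, SE 0.20, adjusted p = 2.21e-07). Of 28 mitosis genes 6 were higher and 5 lower (3 and 3 without input replicate 1, and 2 or 3 lower without ACTB replicate 1, either con replicate or non-target replicate 1), with MKI67 (0.47, SE 0.09) up and the spindle checkpoint kinase TTK (-1.74, SE 0.34) and the ubiquitin-conjugating enzyme UBE2C (-0.88, SE 0.22) down. KRAB and other ZNF zinc finger genes had 76 of 432 higher and 24 lower, with a median of 0.44. Increases included ZNF317 (1.63, SE 0.21) and ZNF721 (1.62, SE 0.20), and ZNF587 decreased (-2.91, SE 0.35). Clustered HOX genes had 3 of 38 higher and 4 lower, near the 11.4% and 8.6% of all genes. These counts were 1 higher without ACTB replicate 2, con replicate 2, non-target replicate 1 or input replicate 2, and 2 lower without ACTB replicate 2, con replicate 1 or input replicate 3. HOXB13 was at 0 in every input and at 10.4 to 50.3 CPM (median 19.6) elsewhere. It was 10.7-fold higher when set against 3 counts over the inputs, which is not a firm lower bound, and its FHY1-M3 level varied widely.

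Metabolic and structural genes gave single members rather than whole lists. Their counts stand beside 11.4% higher and 8.6% lower of all genes, and 30.3% and 28.8% at 300 CPM or more. Of 17 glycolysis genes 6 were higher, among them TPI1 (0.77, SE 0.11), ENO1 (0.61, SE 0.09) and PKM (0.48, SE 0.09), and 2 lower, GPI (-0.65, SE 0.13) and ALDOA (-3.35, SE 0.52). With median-ratio factors 4 were higher and 4 lower, and 3 were higher without either con replicate, non-target replicate 1 or input replicate 3. ALDOA held only 2.96 to 8.39 CPM (median 4.72) against 31.8, 53.6 and 67.96 CPM. Of 25 sterol genes 4 were higher and 5 lower. INSIG1, which retains the sterol sensor in the endoplasmic reticulum, fell from 463, 445 and 429 CPM to 138 to 232 CPM (median 199.6; log2 -1.20, SE 0.14, adjusted p = 3.33e-08), and HMGCS1 (-0.83, SE 0.17) and MSMO1 (-2.05, SE 0.37), enzymes of the pathway, fell too. Of 30 lysosome and autophagy genes 4 were higher and 5 lower, beside 11.4% and 8.6% of all genes. LAMP2 (-1.40, SE 0.20) and the proteases CTSD (-1.62, SE 0.38) and TPP1 (-1.54, SE 0.29) fell, while the autophagosome gene MAP1LC3B rose (1.14, SE 0.27).

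Among 21 actin and tubulin list genes 6 were higher and 2 lower, beside 11.4% and 8.6% of all genes. At 300 CPM or more 30.3% of genes were higher and 28.8% lower. The beta-tubulins TUBB6 (log2 2.38, SE 0.28, adjusted p = 4.42e-08), TUBB4B (1.13, SE 0.15) and TUBB2B (1.74, SE 0.38) rose. TUBB6 held 112 to 161 CPM (median 139.5) against 17.3, 29.3 and 31.4 CPM. Tubulin genes share sequence, so reads may have been divided between them. ACTB, the gene named by 1 of the guides, was lower at 1310.4 to 1384 CPM (median 1355) against 1587, 1546 and 1798 CPM (log2 -0.28, SE 0.07, adjusted p = 0.00375). PFN1, an actin monomer binder, fell (-0.68, SE 0.14). Of 28 matrix and integrin genes 5 were higher and 2 lower, beside 11.4% and 8.6% of all genes. The call of ITGA1, an integrin gene among the lower, was lost without ACTB replicate 1, con replicate 1 or input replicate 1 (edgeR adjusted p = 0.0573, 0.0501 and 0.185). COL5A1 (chromosome 9, 134641803 to 134844843) led the increases with 188 to 333 CPM (median 272) against 40.5, 19.5 and 10.5 CPM (log2 3.53, SE 0.26, adjusted p = 1.81e-13), and the groups did not overlap. COL18A1 (1.60, SE 0.37) and COL6A1 (1.11, SE 0.23) rose and the fibronectin gene FN1 fell (-0.96, SE 0.22).

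Among genes with at least 20 CPM in the FHY1-M3 libraries and 10 counts in the inputs, the 12 largest increases without overlap were those of COL5A1, ELL, DNAJB1, ZNF473, SGMS2, EPPK1, SIPA1, HPS6, HSPH1, CDKN2AIP, ZNF140 and BAG3. ELL, an elongation factor of RNA polymerase II, held 43.7 to 85.6 CPM (median 64.8) against 11.6, 9.75 and 5.23 CPM (log2 2.81, SE 0.47, adjusted p = 2.9e-05). SGMS2, a sphingomyelin synthase gene (2.62, SE 0.51), EPPK1, a plakin of the cytoskeleton (2.57, SE 0.35), and CDKN2AIP, a regulator of p53 (2.46, SE 0.42), followed. VWA1 and ZNF695, both at 0 in every input, were 8.58-fold and 8.18-fold higher when set against 3 counts over the inputs. These folds are not firm lower bounds.

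Among genes not called, with a mean of at least 100 CPM, 6 had the narrowest intervals. They were picked from genes not called, so their nearness to 0 follows from the choice. RPL4 differed by -0.04 (interval -0.15 to 0.07), ACTG1, the other cytoplasmic actin, by -0.02 (-0.14 to 0.11), and GAPDH by -0.10 (-0.23 to 0.02). For EEF1A1, RPL13 and RPL7A the values were -0.10 (-0.21 to 0.01), -0.02 (-0.15 to 0.11) and 0.01 (-0.12 to 0.14). These intervals leave room for changes of up to 0.23 on the log2 scale and depend on the scaling.

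Calls varied with level, gene span and chromosome, given here as a description across genes, which are not replicates. Between 0 and 5 CPM 1.45% of genes were called higher and 1.22% lower, and at 300 CPM or more 30.3% and 28.8%. Among genes of at least 20 CPM, 15.7% of the 8737 with a known span were higher and 11.1% lower. Genes that span 10 to 30 kb were higher in 18.7% and lower in 9.05% (2420 genes, median log2 0.17). Genes over 300 kb went the other way, with 3.85% higher and 14.4% lower (312 genes, median -0.22), at a similar median level of 52.1 against 58.0 CPM. Genes under 3 kb had both many higher (21.9%) and many lower calls (26.4%), the latter including the histone genes. By chromosome, 24.5% of genes on chromosome 19 were higher and 7.85% lower, and on chromosome X 10% and 18.3%. Span and chromosome go together with each other and with gene class, and were not separated.

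**Figure D2:**
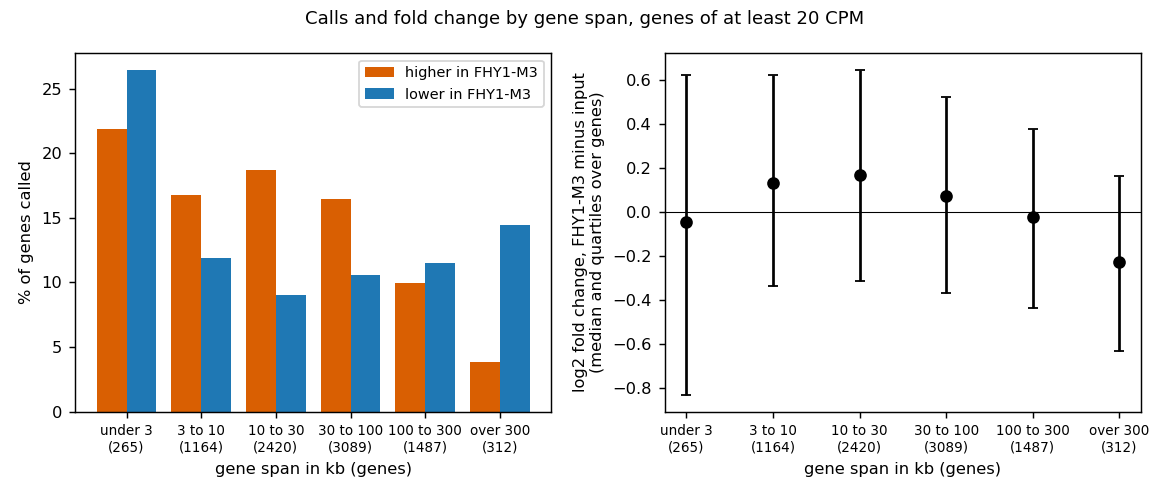
Left, percent of genes of at least 20 CPM called higher or lower in 6 classes of gene span (kb, gene numbers in brackets); right, median and quartiles of their log2 fold change. Calls turn from mostly higher at 10 to 30 kb to mostly lower over 300 kb, with medians of 0.17 and -0.22.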

How the data were processed

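RNA was sequenced from 9 HEK293T libraries: 6 labelled FHY1-M3, with 3 guides of 2 libraries each, and 3 labelled input. The deposited values are read counts per gene symbol, which the authors gave as raw whole numbers for each library. The build hg38 and the tools STAR 2.7.10b, cutadapt 4.3 and deepTools are listed per the submitters' processing notes. Which program counted the reads, whether it used strand, and with which annotation, is not given in the sources used here. Counts appear to include both mates of a pair, so a fragment can add 2 counts.

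Counts were tested with edgeR 4.0.16 (R 4.3.3): low genes were filtered by group, libraries scaled by TMM, and a quasi-likelihood model with 4 groups was fitted. The contrast was the mean of the 3 FHY1-M3 groups minus input, with Benjamini-Hochberg adjustment over all 13411 genes and a threshold of 0.05. Shares of counts and numbers of detected genes were compared with two-sided exact permutation tests (SciPy 1.17.1, Python 3.11.15). DESeq2 1.42.0, other scalings and filters, thinning, a replicate block and each library left out were alternatives. Total counts ranged from 350413 to 3802681, and printed CPM are on TMM-adjusted totals.

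On data simulated for this comparison with 12902 genes, 12% of genes changed 1.5-fold, 48% of 2-fold, 94% of 4-fold and 90% of 8-fold changes were recovered, with 13 false calls. The simulation gave each gene the same spread in both groups and planted changes only in genes above a minimum expected input count. The real inputs varied more than the FHY1-M3 libraries, so these rates, the 13 false calls included, need not hold for the real data. Replicate numbers did not pair the libraries.

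The libraries compared and the gene lists were chosen with earlier results of these data known. The genes named were up to 12 in each direction with the largest change among called genes with a mean of at least 20 CPM in the higher group, at least 10 counts in the lower group and no overlap. Symbols ending in P and digits were left out. Some genes that meet the rule are not reported here. Up to 4 in each direction at 0 in the lower group were added. So were up to 4 called members per list and direction by smallest p, with the members of highest level. The last added were the 6 genes with the narrowest intervals among genes not called and of at least 100 CPM. AHSA1, CCT6A, CCT8, CHORDC1, CSKMT, DNAJA1, DNAJB6, HSF1, HSP90AB1, HSPA1A, HSPA1B, HSPB1, HSPE1, METTL3, MT-ATP8, MT-CO2, MT-CO3, MT-ND6, RABGGTB, SLBP, STIP1 and STUB1 were chosen after their values were seen. Promoter windows and gene positions came from RefSeq (GRCh38.p14), in which 19310 symbols of the table were found and 659 were not.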

Additional observations from a re-analysis of the deposited data

Results flagged for a closer look

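The share of counts in mitochondrial mRNAs was 0.639% in FHY1-M3 ACTB sgRNA replicate 1 and between 0.563% and 0.590% in the other 5 FHY1-M3 libraries. Its gap to the next library was 0.647 of the range of the 6, above Dixon's critical value for 6 samples. Of 37 groups of values examined this way, it was the 1 that stood apart, and chance alone marks about 1 in 20. All 6 values lay far below the lowest input, 7.52%.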

How the results depend on the processing

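Of the 2677 genes called in edgeR, 1184 kept call and direction in all 19 alternatives (739 higher and 445 lower), 1304 did so with each of 9 libraries left out in turn, and 0 were called in the other direction in any of them. The total ranged from 2043 to 2429 with 1 library left out. Thinning the FHY1-M3 libraries to the input depth left 1010 higher calls in place of 1524, over 9875 genes tested in place of 13411. DESeq2 gave 2042 lower calls in place of 1153, and the cause was not tested. With the replicate block 1368 genes were higher and 941 lower, and 1982 calls were shared with the fit without it. Same-numbered libraries shared only a number, so this bears on no pairing. A filter at 10 CPM left 49.5% of calls higher. Fitted on a guide's own libraries and the inputs alone, the ACTB, con and non-target comparisons called 770, 913 and 812 genes in place of 1477, 1534 and 1699. With 1 library left out they ranged from 630 to 1581, 608 to 1640 and 735 to 1800. The lowest value came each time from leaving out a library of that guide (ACTB replicate 2, con replicate 2 and non-target replicate 1), after which the lone library was assumed to vary like the other groups.

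The shares of counts kept their direction with any library left out. The 7 other classes also kept it with mitochondrial mRNAs left out of the totals. In percentage points the differences were then -0.821 for histones, 0.8288 for heat shock genes, 0.1871 for TRiC and 0.1034 for the proteasome. For ribosome biogenesis and aminoacyl-tRNA synthetases they were 0.25 and 0.1104. Cytosolic ribosomal proteins stood at -1.134 in place of -0.5482. Without 1 input the exact permutation test cannot go below p = 0.0714, so those fits say nothing about stability. In percentage points, FHY1-M3 minus input, the values with 1 library left out ranged from -7.163 to -7.024 for mitochondrial mRNAs, -0.7931 to -0.7228 for histones, 0.8722 to 0.8987 for heat shock genes, 0.1931 to 0.2176 for TRiC, 0.1217 to 0.1277 for the proteasome, 0.2777 to 0.3279 for ribosome biogenesis, 0.1344 to 0.1724 for aminoacyl-tRNA synthetases and -0.6734 to -0.4229 for cytosolic ribosomal proteins. The difference in detected genes was 46.5 at 4 counts, 287.2 at 10 counts (exact permutation p = 0.0238), and 24.5 to 58.0 with 1 library left out, where it was 54.8 without ACTB sgRNA replicate 2 (exact permutation p = 0.0357). Of 305 genes named by the rule 261 were called, and 195 of these kept call and direction in every alternative that gave a value. On data simulated with the same spread in both groups 12% of 1.5-fold changes were recovered, so smaller changes can be missed at this depth.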
